A study of Mus musculus with 6 samples.

Results

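Ly6a, Ly6c1, Ly6c2 and Ly6e, 4 genes for Ly6 surface proteins, were followed in lymphocytes of the pregnant mouse mammary gland. They were found by their symbols in the count table, where they are 4 of 55450 genes. All 4 passed the filter on low counts that left 13171 genes for testing. The genes were selected on their measured levels in this same comparison, so their own differences between the groups are given as a description, with no test.

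The 6 bulk RNA-seq libraries came from cells sorted from mammary glands of mice late in pregnancy (E18.5). CD8 beta+ T cells gave 3 libraries and DN (double negative) NK1.1+ lymphocytes gave 3. The study asked about unconventional lymphocytes of the mammary epithelium and their role in the differentiation of epithelial and basal cells. NK1.1 is carried by natural killer (NK) cells and by a subset of T cells, and the labels do not name the markers that the DN cells lack. The sources used here do not give strain, genotype, age or the number of animals behind a library, and neither group is described as treated.

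Ly6 proteins are small, disulfide-rich proteins held on the outer face of the cell membrane by a glycosylphosphatidylinositol (GPI) anchor, and they belong to a larger family with the urokinase receptor (uPAR). Several are induced by interferons, and in mice antibodies to them have long been used to sort blood cells: Ly6a is the stem cell antigen Sca-1, which activated and memory T cells also carry, and the Ly6C antigen encoded by Ly6c1 and Ly6c2 marks memory CD8 T cells and inflammatory monocytes. Ly6e is found on many cell types, and its protein limits the entry of some viruses.

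The 4 genes lie within 156.9 kb on chromosome 15 of build mm10 and are all annotated as protein-coding. Ly6e lies on the plus strand from 74955051 to 74959905. The other 3 lie on the minus strand: Ly6a from 74994877 to 74998031, Ly6c1 from 75044018 to 75048830 and Ly6c2 from 75108158 to 75111970. The beginnings of the coding sequences are printed because they show how closely 3 of the genes resemble each other, which bears on how reads could be assigned to them. The bases are the first 90 of the coding sequence, 5′ to 3′, from GENCODE M21 transcripts, and capitals mark bases that differ from Ly6c2 in a pairwise alignment of the whole coding sequences.
Ly6c2: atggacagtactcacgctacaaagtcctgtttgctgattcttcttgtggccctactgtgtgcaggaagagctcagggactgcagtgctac
Ly6c1: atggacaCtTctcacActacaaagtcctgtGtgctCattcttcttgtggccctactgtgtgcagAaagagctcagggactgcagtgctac
Ly6a: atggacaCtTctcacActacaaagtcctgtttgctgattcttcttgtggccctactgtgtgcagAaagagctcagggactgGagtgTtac
Ly6e: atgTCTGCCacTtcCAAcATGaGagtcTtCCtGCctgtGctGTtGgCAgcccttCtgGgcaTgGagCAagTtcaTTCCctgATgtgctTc

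In this stretch Ly6c1 and Ly6a each differed from Ly6c2 at 6 bases, and Ly6e at 39. Over the whole coding sequence of 396 bases, Ly6c1 and Ly6c2 differed at 9 bases (97.7% identical), with an identical run of 188 bases. Ly6a, with 405 coding bases, was 82.0% identical to Ly6c1 and 81.7% to Ly6c2. Ly6e, with 411 coding bases, was 49.9% to 52.6% identical to the other 3. Of all 50-base windows of the annotated coding transcripts, 31.2% in Ly6c2, 32.8% in Ly6c1 and 19.0% in Ly6a occurred identically in another gene, and 0 of 2829 in Ly6e. For Ly6c2 the shared windows were mostly shared with Ly6c1, at 30.8% of its windows. The split of reads between Ly6c1 and Ly6c2 is therefore uncertain, and their sum is given beside them.

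Levels are in CPM, counts scaled to library sizes that were corrected by TMM factors. Library totals ran from 7961360 to 14367299 counts, and 1 count was worth 0.0721 to 0.13 CPM. The sorted groups held their sort genes: Cd8b1, for the CD8 beta chain, averaged 947.3 CPM in the CD8 beta+ group and 2.56 CPM in the DN NK1.1+ group, and Klrb1c, for NK1.1, averaged 37.06 and 638 CPM. Cd8a, for the CD8 alpha chain, averaged 909.2 and 161.6 CPM. A list of 10 T cell markers, led by Cd3g, summed to 4895 to 5233 CPM in CD8 beta+ libraries and 1942 to 2104 CPM in the others. A list of 10 NK and innate lymphoid markers, led by Gzma, summed to 1200 to 1561 and 5215 to 5845 CPM. In CD8 beta+ replicates 1 to 3, Nkg7 made up 836.9, 736.3 and 960.7 CPM of this sum, its largest part. Nkg7 was singled out after its values were seen, averaged 844.6 and 734.5 CPM, and overlapped between the groups. The T cell list includes Cd8a and Cd8b1 and the NK list includes Klrb1c, so the sort itself set part of both differences. Among the other T cell markers, Cd3g averaged 726.8 and 663.5 CPM, and Cd5 averaged 158.7 and 10.1 CPM. Over all 13171 genes, 7.84% were called higher in the DN NK1.1+ group and 5.99% lower by edgeR's quasi-likelihood test. In bulk samples, fewer cells of a type and less RNA per cell cannot be told apart.

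Ly6a, for Sca-1, separated the groups most widely of the 4. Its levels were 85.5, 70.5 and 80.8 CPM in CD8 beta+ replicates 1 to 3, and 3.18, 2.93 and 7.94 CPM in DN NK1.1+ replicates 1 to 3. The groups did not overlap, and the lowest CD8 beta+ library lay far above DN NK1.1+ replicate 3, the highest of its group. The means were 78.9 ± 7.66 and 4.685 ± 2.825 CPM (SD, n = 3 per group). The log2 fold change, DN NK1.1+ minus CD8 beta+, was −4.05 (SE 0.359), a level 16.6-fold higher in CD8 beta+ libraries, and it was the 34th lowest of 13171. By level, Ly6a stood 2319th among genes of the CD8 beta+ group and 9536th in the other. Leaving out DN NK1.1+ replicate 3 moved this change to −4.68. In counts, the 3 DN NK1.1+ libraries held 37, 35 and 105 for Ly6a, against 659, 978 and 786 in CD8 beta+ libraries.

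Ly6c2, one of the genes of the Ly6C antigen, was high in both groups and higher in CD8 beta+ libraries. Its levels were 659, 536.6 and 451.2 CPM in CD8 beta+ replicates 1 to 3 and 181.8, 167.2 and 189.7 CPM in DN NK1.1+ replicates 1 to 3. The groups did not overlap: CD8 beta+ replicate 3, the lowest of its group, was still more than every DN NK1.1+ library. The means were 548.9 ± 104 and 179.6 ± 11.4 CPM (SD, n = 3 per group), with a log2 fold change of −1.61 (SE 0.126). That is a level 3.06-fold higher in CD8 beta+ libraries. The DN NK1.1+ libraries lay closer together than the CD8 beta+ libraries.

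Ly6c1, the close copy of Ly6c2, was near the limit of detection. Its counts were 3, 15 and 8 in CD8 beta+ replicates 1 to 3 and 24, 0 and 67 in the DN NK1.1+ replicates. As levels these were 0.389, 1.08 and 0.822 CPM against 2.07, 0 and 5.07 CPM, and the groups overlapped, since DN NK1.1+ replicate 2 held 0 counts, which allows up to 0.251 CPM (3 counts of that library). The mean levels were 0.764 ± 0.350 and 2.38 ± 2.55 CPM (SD, n = 3 per group). The log2 fold change was 1.598 with an SE of 1.13, 0.40 without DN NK1.1+ replicate 3 and −0.03 with limma-voom. No direction is read from it.

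Summed, Ly6c1 and Ly6c2 gave 659.4, 537.7 and 451.9 CPM in CD8 beta+ and 183.9, 167.2 and 194.8 CPM in DN NK1.1+ replicates 1 to 3. The groups of the sum did not overlap either. The sum's log2 fold change was −1.59 (SE 0.127), close to that of Ly6c2 alone. Ly6c1 made up 0.0679% to 0.205% of the pair's counts in CD8 beta+ libraries and 0% to 2.59% in DN NK1.1+ libraries.

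Ly6e was the most alike between the groups. Its levels were 969.2, 867.3 and 882.1 CPM in CD8 beta+ replicates 1 to 3, and 742.2, 810.6 and 965.8 CPM in DN NK1.1+ replicates 1 to 3. The groups overlapped, with DN NK1.1+ replicate 3 as high as the CD8 beta+ libraries. The means were 906.2 ± 55.1 and 839.5 ± 114.5 CPM (SD, n = 3 per group), and the log2 fold change was −0.11 (SE 0.109). By level, Ly6e stood 127th among genes of the CD8 beta+ group and 120th in the other.

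**Figure D1:**
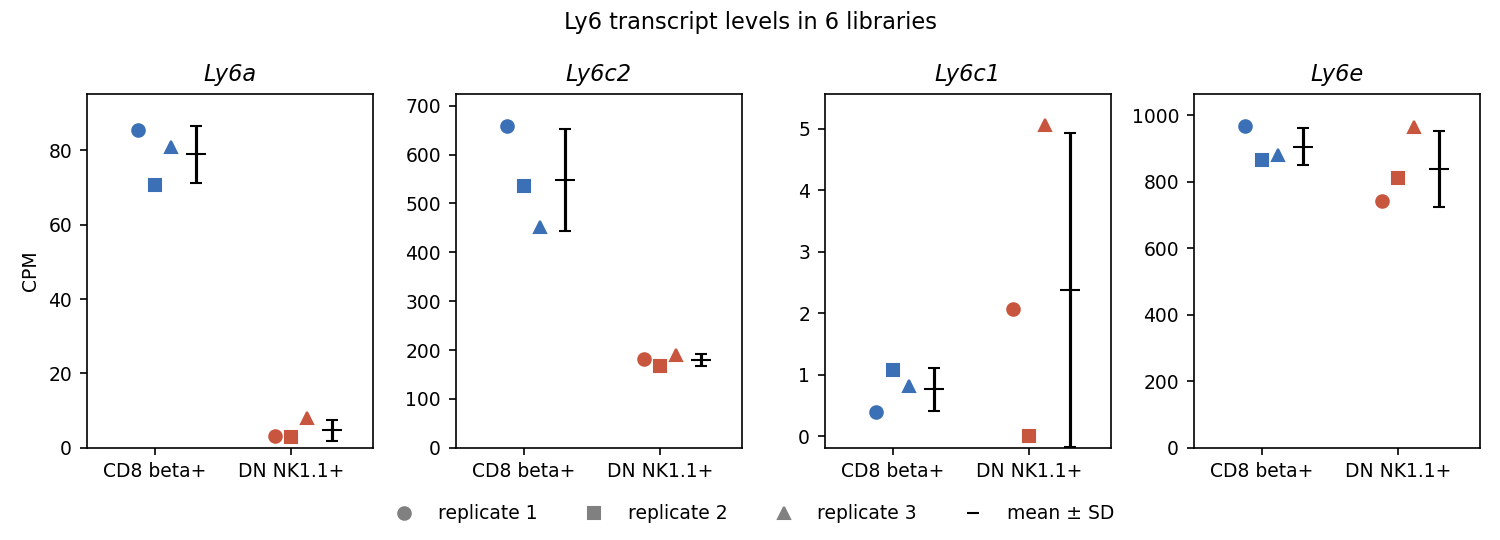
Levels of the 4 genes in CPM (vertical axes, a separate scale for each gene) in each library, with symbols for replicates 1 to 3 and bars for the mean ± SD of 3 libraries. For Ly6a and Ly6c2 the CD8 beta+ points lie above all DN NK1.1+ points; for Ly6c1 and Ly6e the groups overlap.

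Of the 4 genes, 2 had groups that did not overlap, both with CD8 beta+ higher. Over all tested genes, the groups did not overlap in 30.6%, with CD8 beta+ higher in 14.6% and DN NK1.1+ higher in 16%. The choice of the genes used this contrast, so nothing is read from that count.

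The mixture of Ly6 transcripts differed between the groups, as follows from the levels above, and is no separate result. Of the counts of the 4 genes, Ly6e made up 56.5%, 58.8% and 62.3% in CD8 beta+ replicates 1 to 3 and 79.9%, 82.7% and 82.6% in the DN NK1.1+ replicates. Ly6c2 made up 38.4%, 36.4% and 31.9%, then 19.6%, 17.0% and 16.2%, and Ly6a 4.99%, 4.78% and 5.71%, then 0.343%, 0.299% and 0.680%. The ratio of Ly6c2 to Ly6a counts was 5.59 to 7.71 in the CD8 beta+ group and 23.9 to 57.1 in the DN NK1.1+ group, so that Ly6a was the rarer of the pair by a wider margin in DN NK1.1+ libraries. The summed level of the 4 genes was 1714, 1476 and 1415 CPM against 929.3, 980.7 and 1169 CPM.

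Levels between genes were compared per kilobase of transcript. With the longest coding transcript as length, CD8 beta+ libraries held 667.8 ± 127 CPM per kb of Ly6c2, 397.3 ± 24.2 of Ly6e, 82.6 ± 8.02 of Ly6a and 0.906 ± 0.414 of Ly6c1 (SD, n = 3). In DN NK1.1+ libraries the order was Ly6e with 368.0 ± 50.2 CPM per kb, Ly6c2 with 218.5 ± 13.9, Ly6a with 4.91 ± 2.96 and Ly6c1 with 2.82 ± 3.02. The ranges of the last 2, Ly6a and Ly6c1, overlapped across libraries, although Ly6a was the higher of the pair within each of the 3 libraries. Because Ly6a and Ly6c1 share sequence windows, the split of reads between them is uncertain. With all annotated exons as length, Ly6e (239.5 ± 14.6 CPM per kb) stood above Ly6c2 (200.3 ± 38.1) in CD8 beta+ libraries and the ranges of these 2 overlapped, so the order of the top pair in CD8 beta+ cells depends on the length used.

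Few other genes of this stretch of chromosome had more than traces of counts. Within 20 kb of the span, 14 genes are annotated, 11 had a count in any library and 3 reached 5 CPM in a group, namely Ly6e, Ly6a and Ly6c2. Ly6i, which lies between Ly6e and Ly6a, averaged 0.0240 CPM in the CD8 beta+ group and 0.109 CPM in the other. The pseudogene I830127L07Rik, from 75131377 to 75135128 beyond Ly6c2, held 3, 3 and 17 counts in CD8 beta+ replicates 1 to 3 and 21, 74 and 59 in the DN NK1.1+ replicates. Its mean levels were 0.784 ± 0.838 and 4.15 ± 2.21 CPM (SD, n = 3 per group), with the highest CD8 beta+ library close to the lowest DN NK1.1+ library. RefSeq lists the same locus as Ly6a2, a protein-coding gene.

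**Figure D2:**
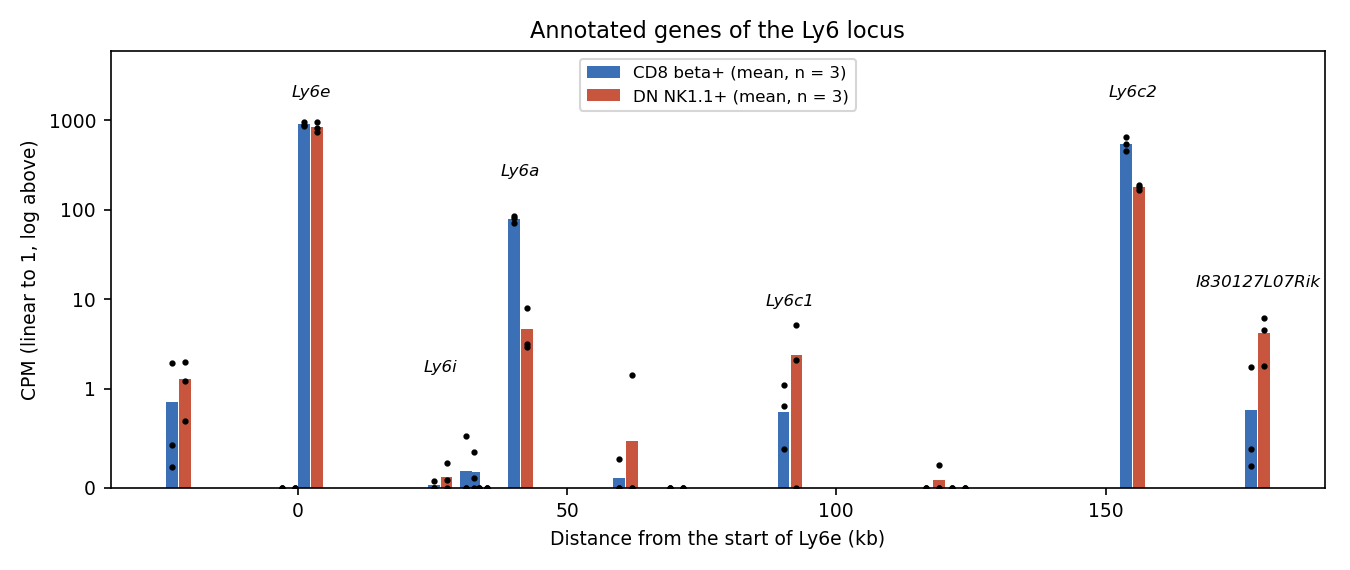
Mean CPM (vertical axis, linear to 1 and logarithmic above) of the annotated genes of the Ly6 locus against distance from the start of Ly6e in kb, with bars for the means of 3 libraries per group and dots for single libraries. Bars reach 5 CPM only at Ly6e, Ly6a and Ly6c2.

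The promoters of the Ly6C pair are printed because Ly6c2 was abundant and its close copy Ly6c1 was near the limit of detection in the same libraries. RefSeq windows of build GRCm38.p6, from 250 bases before to 50 bases after the start site, were found for these 2 of the 4 genes, with 2 start sites each, and the window of start site 1 is printed. Both are on the minus strand, Ly6c1 at chr15:75048788-75049087 and Ly6c2 at chr15:75111922-75112221. Each is written 5′ to 3′ on its own strand, and capitals mark a match to the RUNX motif TGTGGT, read on the opposite strand as ACCACA.
Ly6c1: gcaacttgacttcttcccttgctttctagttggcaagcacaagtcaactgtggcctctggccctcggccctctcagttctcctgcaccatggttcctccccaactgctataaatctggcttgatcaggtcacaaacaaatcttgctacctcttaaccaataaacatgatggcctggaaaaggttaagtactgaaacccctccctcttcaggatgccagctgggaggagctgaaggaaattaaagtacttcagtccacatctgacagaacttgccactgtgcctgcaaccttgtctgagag
Ly6c2: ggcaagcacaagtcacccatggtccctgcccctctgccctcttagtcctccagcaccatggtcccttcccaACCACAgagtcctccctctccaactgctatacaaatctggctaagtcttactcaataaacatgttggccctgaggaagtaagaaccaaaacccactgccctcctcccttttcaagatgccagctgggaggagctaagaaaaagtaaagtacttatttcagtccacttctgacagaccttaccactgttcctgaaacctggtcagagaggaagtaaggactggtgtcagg

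The windows were 73.8% identical over 282 aligned columns, and the pairings that involve the other start sites were 72.6% to 81.4% identical. All these values lie below the identity of the coding sequences (97.7%). The RUNX letters stand at bases 72 to 77 of the Ly6c2 window and nowhere in that of Ly6c1. They occur in 16.8% of 32851 promoter windows of the same length. Searched on both strands, the interferon motifs ISRE core (GAAA, any 2 bases, GAAA) and GAS (TTCNNNGAA) and the TCF/LEF motif CTTTGAA matched in neither window, and 3.44%, 8.3% and 5.14% of all windows held them. A match is only a description of letters.

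Other family members were scarce, and none of those tested passed the test. The list held 42 other Ly6/uPAR genes, of which 37 were in the table, 15 had a count and 5 passed the filter. Of these 5, 0 passed the test in either direction with edgeR, DESeq2 or limma-voom, and 0 did at an unadjusted p under 0.05. Their median log2 fold change was −0.60, against −0.0033 over all tested genes. Ly6g5b, an Ly6 gene of the major histocompatibility region, averaged 7.17 and 5.68 CPM (adjusted p = 0.689), and Plaur, for uPAR, averaged 3.01 and 1.98 (adjusted p = 0.641). Lypd6b (2.85 and 1.63 CPM), Gpihbp1 (1.199 and 1.37 CPM), whose protein carries lipoprotein lipase across capillary walls, and Ly6d (1.33 and 0.553 CPM) were lower still. Ly6k, singled out after its values were seen, held 11, 12 and 10 counts in CD8 beta+ replicates and 0 in each DN NK1.1+ library. Against 3 counts over the group it was at least 12.9-fold higher in CD8 beta+ libraries, but it did not pass the filter. With no filter on low counts, 1 relative was called lower.

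Surface proteins with the same kind of anchor were mixed in direction. Of 12 tested genes of other GPI-anchored lymphocyte proteins, 3 fell in DN NK1.1+ libraries (25%, against 5.99% of all genes) and 1 rose (8.33%, against 7.84%), with a median log2 fold change of −0.30. Art2b, an ADP-ribosyltransferase of T cells, fell from 20.3 ± 7.88 to 0.743 ± 0.405 CPM (SD, n = 3; log2 fold change −4.73, SE 0.417, adjusted p = 1.56e-06 by edgeR). Thy1, the pan-T cell antigen CD90, fell from 1103 ± 87.4 to 517.3 ± 72.1 CPM (−1.09, adjusted p = 7.16e-06). Nt5e, the adenosine-producing enzyme CD73, rose from 103 ± 14.1 to 157.7 ± 7.51 CPM (0.61, adjusted p = 0.00138). Cd52, which is abundant on lymphocytes, averaged 668.7 and 536.2 CPM and did not pass (adjusted p = 0.0695). Of the genes that build the anchor and attach it, 29 were tested, of which 0 rose (against 7.84% of all genes) and 1 fell (3.45%, against 5.99%), with a median of −0.0109. At an unadjusted p under 0.05, 1 was higher, and DESeq2 and limma-voom called 0 higher too. Pgap1, which trims the anchor after attachment, fell from 32.9 ± 6.92 to 12.1 ± 2.39 CPM (−1.44, adjusted p = 2.32e-04). Pigt and Pigk, subunits of the transamidase that joins protein to anchor, averaged 64.5 and 68.2 CPM and 57.6 and 69.4 CPM and did not pass (adjusted p = 0.755 and 0.165).

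Of 64 tested interferon-stimulated genes other than the 4, 32 fell in DN NK1.1+ libraries (50%, against 5.99% of all genes) and 2 rose (3.12%, against 7.84%), with a median log2 fold change of −0.51. Their summed level was 5232, 5262 and 5497 CPM in CD8 beta+ and 3419, 3320 and 3141 CPM in DN NK1.1+ replicates 1 to 3, and these did not overlap. Ifi27l2a fell from 26.2 ± 6.27 to 3.24 ± 1.31 CPM (−3.002, adjusted p = 6.34e-06) and Ifit1bl1, of the antiviral IFIT family, from 46.1 ± 1.39 to 7.28 ± 1.15 CPM (−2.66, adjusted p = 8.38e-08). The most abundant of the list were the membrane protein genes Ms4a4b, which fell from 799.8 ± 47.3 to 400.8 ± 8.47 CPM (−0.997), and Ms4a6b, which fell from 596.7 ± 10.0 to 150.6 ± 3.76 CPM (−1.99). Of the genes that rose, Ifi204, a DNA-binding protein of the p200 family, went from 1.09 ± 0.386 to 5.84 ± 0.310 CPM (2.38, adjusted p = 0.00347). The chemokine gene Cxcl10 went from 7.24 ± 1.76 to 13.6 ± 3.12 CPM (0.91, adjusted p = 0.0402). Its call was lost without each of 5 libraries in turn, with adjusted p-values of 0.05 to 0.179. Monocyte and macrophage markers, led by Ccr2, summed to 234.1 to 330.4 CPM in CD8 beta+ and 315.6 to 416.6 CPM in DN NK1.1+ libraries, with none of 12 at 0 in all libraries, and their part in the result was not tested.

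Of the receptors and signalling genes of interferon, 17 were tested, of which 3 fell (17.6%, against 5.99% of all genes) and 1 rose (5.88%, against 7.84%), with a median of −0.00597. Irf8, a transcription factor of the interferon regulatory family, rose from 16.2 ± 2.42 to 145.2 ± 8.60 CPM (3.16, adjusted p = 4.21e-10). Irf9, a transcription factor of the type I interferon response, fell from 54.0 ± 5.48 to 32.5 ± 6.69 CPM (−0.73, adjusted p = 0.00711). Jak1 and Ifngr1, for a kinase and a receptor chain, were the most abundant, with 1742 and 1527 CPM and with 631.4 and 718.4 CPM, and did not pass (adjusted p = 0.251 and 0.229).

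Among genes read together with Ly6C on memory T cells, 25 were tested and 11 fell in DN NK1.1+ libraries (44%, against 5.99% of all genes). Another 3 rose (12%, against 7.84%), 11 did not pass, and the median log2 fold change was −0.506. S1pr1, the receptor for egress from tissue, fell from 144.3 ± 17.0 to 40.0 ± 7.31 CPM (−1.85, adjusted p = 3.37e-07). The integrin gene Itga4 fell from 1733 ± 257 to 745.8 ± 5.96 CPM (−1.22, adjusted p = 2.07e-06). The homing receptor gene Ccr7 had 91.5, 92.9 and 25.9 CPM in CD8 beta+ replicates and a mean of 4.23 ± 0.610 CPM in DN NK1.1+ libraries (−4.05, adjusted p = 0.0153). Its call was lost in 4 of the alternatives, among them the removal of any 1 DN NK1.1+ library (adjusted p = 0.09 to 0.163). Il2rb, the interleukin-2 receptor beta chain, rose from 983.2 ± 91.7 to 2282 ± 274 CPM (1.22, adjusted p = 2.69e-06). Il2ra, the alpha chain, rose from 7.79 ± 2.02 to 15.1 ± 2.44 CPM (0.96, adjusted p = 0.0224), a call lost without each of 3 libraries in turn (adjusted p = 0.10 to 0.123).

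CD8 beta+ replicate 3, the lowest of its group for Ly6c2, was also the lowest for Il7r and Ccr7 of this list, of which Il7r was chosen after its values were seen. Il7r, the interleukin-7 receptor, had 432.2, 393.2 and 115.8 CPM in CD8 beta+ replicates 1 to 3 and 107.3, 105.7 and 70.4 CPM in the DN NK1.1+ replicates (adjusted p = 0.174). Ly6a and Ly6e were not: in CD8 beta+ libraries their lowest value was in replicate 2.

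**Figure D3:**
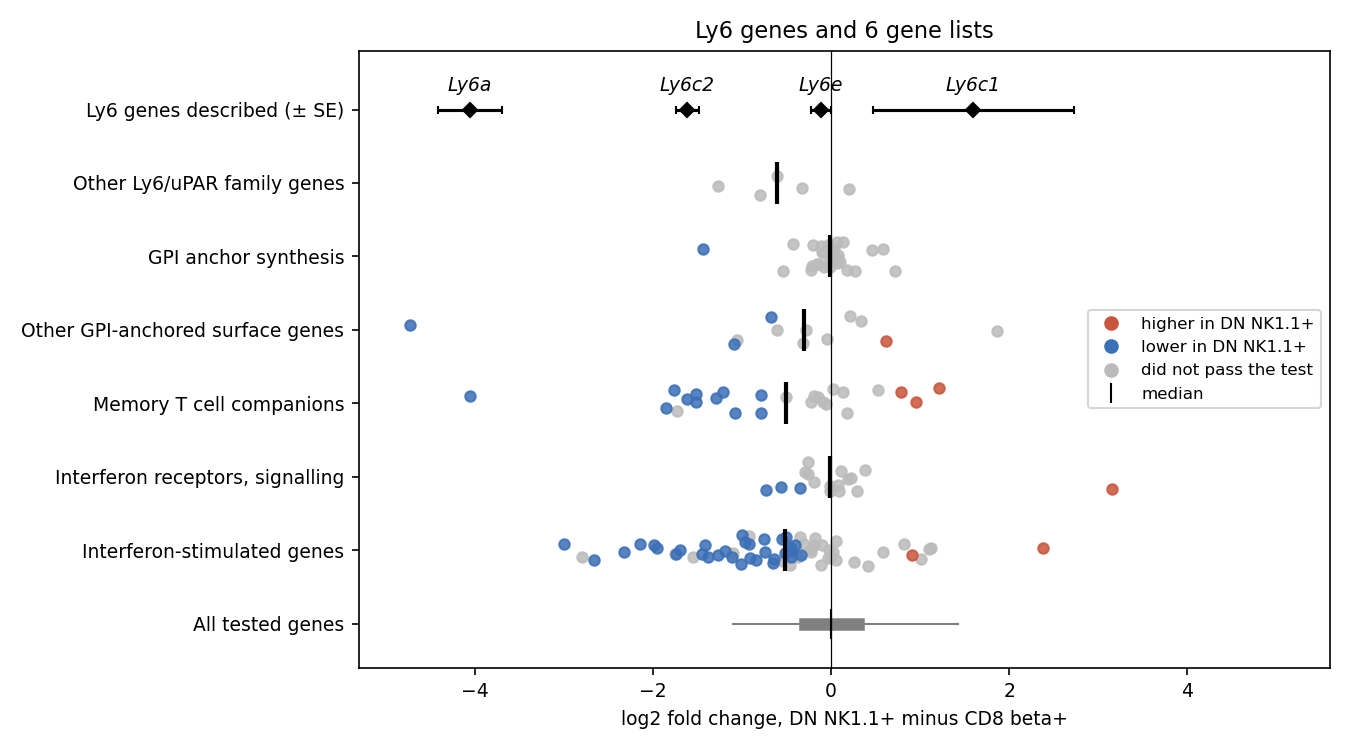
Log2 fold changes (DN NK1.1+ minus CD8 beta+, horizontal axis) of the 4 Ly6 genes with their SE and of the tested genes of 6 lists, coloured by the test's call, with a mark at each median. The bottom row spans the 5th to 95th percentile of all tested genes (−1.10 to 1.43), with a thick bar from the 25th to the 75th. The medians of interferon-stimulated genes (−0.51) and memory companions (−0.506) lie left of 0.

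The genes most like each member over the 6 libraries were found as those with the smallest root mean square (RMS) difference of centred log2 CPM among about 5784 genes with at least 20 CPM. For Ly6a these were Cd5 (RMS 0.405), Cd6 (0.499) and Plac8 (0.613), of which the first 2 encode scavenger-type receptors of T cells. Cd5 averaged 158.7 CPM in the CD8 beta+ group and 10.1 CPM in the other. Ly6c2 was most like Rgs10 (0.0748), Gpr183 (0.132) and Fam78a (0.140). Ly6e was most like Arhgap1 (0.0264), Sema4a (0.0312) and Mrtfa (0.0383), which lie near no difference, as Ly6e does. Ly6c1 was most like Fn1 (0.923), Gsn (1.01) and Cd36 (1.19), at RMS values larger than those of the other 3 members. The RMS values of Ly6a were in turn larger than those of Ly6c2 and Ly6e.

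Fibroblasts and endothelial cells can express Ly6a and Ly6c1, so markers of these cells were set beside the libraries. The 10 fibroblast markers, led by Col3a1, summed to 40.6, 12.0 and 160.4 CPM in CD8 beta+ and 44.3, 1.84 and 150.6 CPM in DN NK1.1+ replicates 1 to 3, and no marker was at 0 in all libraries. The 11 endothelial markers, led by Pecam1, summed to 34.9, 39.4 and 49.0 CPM, then 83.0, 49.4 and 87.2 CPM. Pecam1 alone, which some leukocytes also express, made up 34.8, 37.8 and 22.6 CPM, then 63.4, 47.8 and 65.0 CPM of these sums. The other 10 endothelial markers summed to 0.13, 1.66 and 26.4 CPM, then 19.6, 1.51 and 22.2 CPM, so that without Pecam1 the groups overlapped and CD8 beta+ replicate 3 was the highest library. Among DN NK1.1+ libraries, Ly6a, Ly6c1 and both sums were highest in replicate 3 and lowest in replicate 2. Among CD8 beta+ libraries, both sums were highest in replicate 3, where neither Ly6a nor Ly6c1 was highest. Replicate 2 had the lowest Ly6a level and the lowest fibroblast sum of that group, and the highest Ly6c1 level. The part of these cells in the levels of Ly6a and Ly6c1 was not tested.

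**Figure D4:**
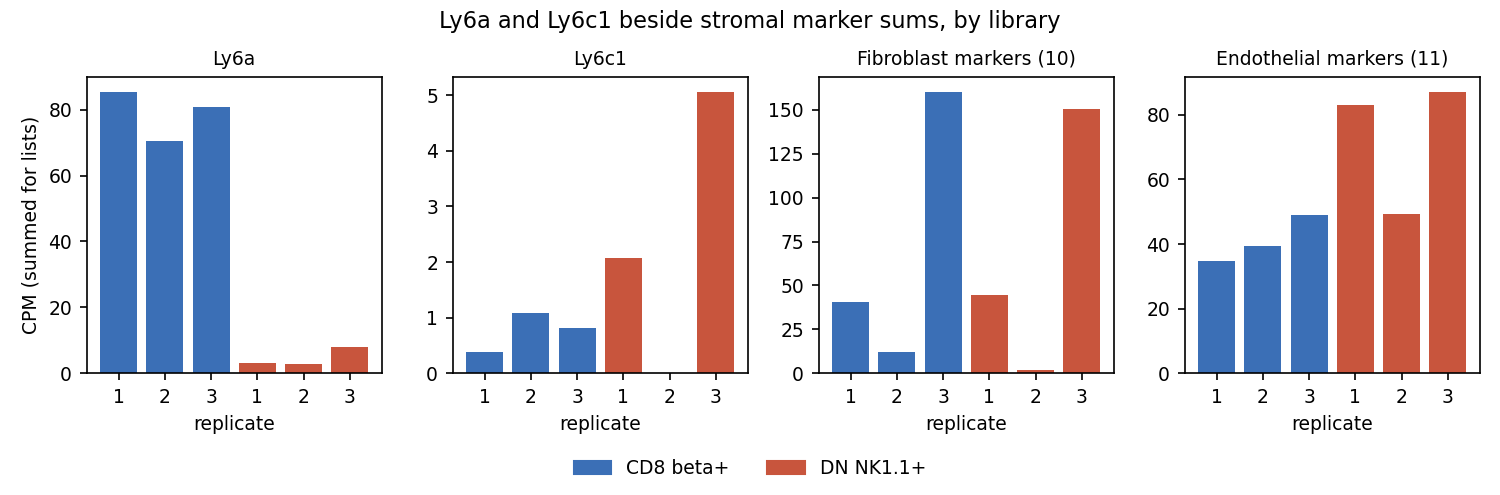
Levels in CPM (summed for the lists) of Ly6a, Ly6c1, 10 fibroblast and 11 endothelial markers in each library, in bars by replicate and group. In DN NK1.1+ libraries all 4 panels are highest in replicate 3 and lowest in replicate 2, and most of the endothelial sum in these libraries is Pecam1.

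Other markers were given for the same libraries. Dendritic cell markers, led by Cd74, summed to 513 to 581.4 CPM in CD8 beta+ and 668.3 to 945.6 CPM in DN NK1.1+ libraries. The genes of this list were mixed. Cd74 itself overlapped between the groups, with means of 257.5 CPM in CD8 beta+ and 318.1 CPM in DN NK1.1+ libraries. Itgax did not overlap, with means of 112.9 and 267.9 CPM. Ccr9 went the other way, with means of 7.6 and 0.05 CPM. B cell markers, led by Ighm, summed to 172.8 to 256.8 and 274.1 to 319.9 CPM. Neutrophil markers, led by S100a9, summed to 1.23 to 10.4 CPM over the 6 libraries. Luminal markers, led by the milk protein gene Csn2, summed to 730.8 to 1048 and 424.8 to 2189 CPM, and basal markers, led by Acta2, to 15.7 to 153.6 and 10.9 to 205.2 CPM. None of these markers was at 0 in all libraries, and their part in the Ly6 levels was not tested.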

How the data were processed

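Bulk RNA-seq of 3 CD8 beta+ and 3 DN NK1.1+ libraries was compared. The table that the authors deposited was read, for each gene, in expected counts, a unit inferred from the values. RNA came from a Qiagen micro kit and libraries from a Tecan kit, per the labels' protocols. The submitters' processing notes list mm10 and Cell Ranger 7.1.0, a single-cell tool; for these libraries the aligner, counting tool, annotation and use of strand were not given in the sources used here, so overlapping genes cannot be told apart by strand. The headings of the 2 identifier columns are swapped, and all 55450 IDs and symbols matched GENCODE M21.

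Counts were rounded to whole numbers, and 16552 to 18646 genes per library had a count. The fit used edgeR 4.0.16 in R 4.3.3 (quasi-likelihood, robust, TMM, group only), with a filter of at least 10 counts and a total of 15, and two-sided p-values adjusted by Benjamini-Hochberg over 13171 genes (threshold 0.05). P-values reflect only the spread among these samples, possibly technical, since the labels do not say that libraries come from separate animals. No replicate was a copy of another (chi-square per degree of freedom 9.07 to 23.5). Floors cover counting error only.

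The members, gene lists and tests were chosen with earlier results of these data known. Genes named were the 4 members, the sort genes Cd8a, Cd8b1 and Klrb1c, of each list the 2 called genes with the largest change each way (at least 5 CPM) and the 2 most abundant, the relatives that passed the filter, the top gene of each marker list, the neighbours by position and the 3 genes most like each member. Some genes that this rule names are not reported here. Sequences were aligned with Biopython 1.88. The fit was tested on simulated counts. Alternatives were DESeq2 1.42.0, limma-voom 3.58.1, RLE, upper-quartile and unscaled library sizes, other filters, a replicate block and each library left out.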

Additional observations from a re-analysis of the deposited data

How the results depend on the processing

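Directions of Ly6a and Ly6c2 and of the pair's sum held under every alternative run, with log2 fold changes of −4.68 to −3.81, −1.74 to −1.47 and −1.73 to −1.45 when libraries were left out. Without DN NK1.1+ replicate 3, Ly6a stood at −4.68. Ly6e ranged from −0.22 to −0.03 there, and Ly6c1 from 0.40 to 2.17; Ly6c1 stood at −0.03 with limma-voom, and with the stricter filter (50 counts) Ly6c1 had no value. Leaving out libraries gave 681 to 1093 genes higher and 499 to 883 lower, the fewest (681 and 499) without CD8 beta+ replicate 1. The same removals gave 1 to 2 GPI-anchored genes higher, 1 to 4 interferon-stimulated genes higher and 1 to 2 interferon signalling genes higher. Interferon-stimulated genes called lower numbered 26 to 31 in these removals, against 32 in the main fit, and 27 to 36 under the other alternatives. Memory companions called lower numbered 10 to 13 in the removals, against 11 in the main fit. With no filter, 1 relative was called lower. Of 57 called list genes, 13 lost their call under some alternative, and 0 reversed. With the replicate block, 1137 genes were higher and 945 lower, with log2 fold changes of −4.15 for Ly6a and 0.93 for Ly6c1. In their deviations, same-numbered libraries correlated at −0.0463, 0.209 and 0.26, and differently numbered ones at −0.269 to 0.0847. Libraries numbered 2 and 3 correlated best with their own number, and those numbered 1 did not. The main fit did not take the numbers as pairs, and whether same-numbered libraries share a batch was not tested. Median log2 fold changes over all genes were −0.0075 to 0.0446 across TMM, RLE and unscaled sizes and −0.0319 with the upper quartile. At 26 and 91 counts over the groups, Ly6c1 rests on few counts.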
